A study of Mus musculus with 8 samples.

Results

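Plasmacytoid dendritic cells were chosen by their own expression values: the mean deposited value of Siglech, Ccr9, Cox6a2, Klk1 and Tcf4 had to be at least 1. The mean of the T cell genes Cd3g and Trbc2 also had to be below 0.5, and that of the complement genes C1qa, C1qb and C1qc, which mark macrophages, below 0.8. The rule gave 103 of the 53528 cells of the table. They were set against 18624 other immune cells, which had a mean of Cd3g and Trbc2, or of the adaptor genes Tyrobp and Fcer1g, of at least 0.8. This limit names no B cell gene, and 3 of the 103 cells did not meet it themselves. Of the 489 other dendritic cells described below, 187 met it and are counted there. Cells in neither group are called remaining cells. The measurement was droplet-based 3′ single-cell RNA sequencing of dissociated tumours of Hepa1-6, a mouse hepatoma cell line, per the labels. The tumours came in 4 groups: WT cells with intraperitoneal PBS, WT cells with intraperitoneal PD1 antibody, and Soat1-edited cells with PBS or with the antibody. The edited tumours are called Soat1KO in the titles and Soat1 knockdown in the genotype field, and the labels give neither the strain or age of the host animals nor how many tumours were pooled. All entries are labelled as liver cancer cells, a label that the immune cells do not meet. Soat1 encodes an enzyme that esterifies cholesterol. A last number in each cell's name divides the table into 6 sets, and nothing ties a set to a group. The names are running numbers, 22421 of them distinct without that last number, so shared barcodes could not be counted. No genotype or treatment could therefore be compared, the table counts as 1 sample, and no p-value is given.

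Plasmacytoid dendritic cells are a rare dendritic lineage that senses viral and self nucleic acids in endosomes, through Toll-like receptors, and can release large amounts of type I interferon. The E protein TCF4 is required for their identity, and in mice the surface lectin Siglec-H is the usual marker. They carry features of lymphoid cells, such as partly rearranged immunoglobulin genes, and at rest present antigen less than conventional dendritic cells do. In tumours they have been described both as a source of interferon and as poorly responsive cells.

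The 6 sets held 6, 9, 31, 10, 26 and 21 of the cells, in the order of their numbers. Immune cells here means these cells together with the other immune cells defined above, which is not every immune cell. The plasmacytoid dendritic cells were 0.550% of them (95% CI 0.449 to 0.667, exact Clopper-Pearson, counting error only) and 0.192% of all cells. Their share was, for sets 1 to 6, 0.297, 0.359, 0.916, 0.25, 1.11 and 0.468% of the immune cells, with a median of 0.414%. The intervals of sets 3 (0.623 to 1.30) and 5 (0.729 to 1.63) lay above that of set 4 (0.120 to 0.460), and those of sets 1, 2 and 6 reached down into it. Among 4 dendritic classes together, these cells and the 489 other dendritic cells described below, the share was 17.4% (CI 14.4 to 20.7). It was again highest in set 5 (27.4%) and set 3 (24.6%) and lay between 9.68% and 14.3% in the other 4 sets. Immune cells so defined made up 21.5, 33.1, 28.7, 51.3, 28.7 and 50.6% of the cells of sets 1 to 6. The 2 sets with the highest share were thus not those richest in immune cells.

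**Figure D1:**
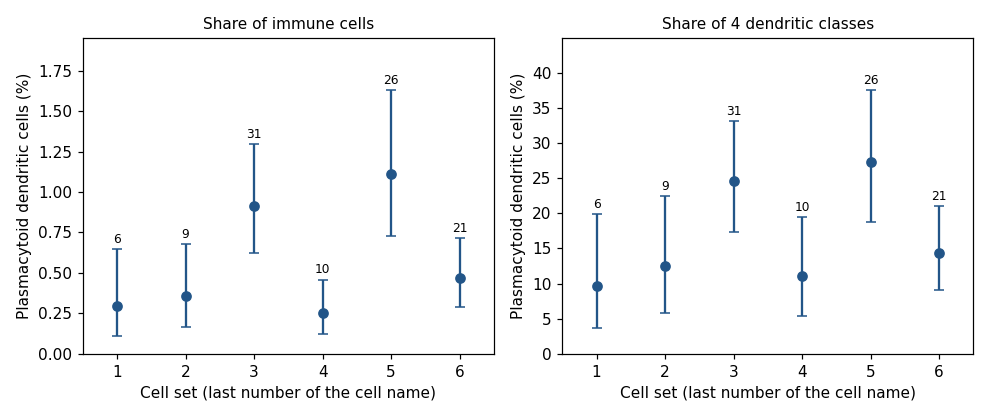
Share of plasmacytoid dendritic cells in each of the 6 cell sets, as a percentage of immune cells (left) and of 4 dendritic classes (right). Points are shares, bars are exact 95% binomial intervals that cover counting error only, and the number above each bar is the number of cells (6 to 31); sets 3 and 5 have the highest shares in both panels.

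Molecules were counted in set 1 alone. There a value could be read back as a whole number of UMIs (unique molecular identifiers) scaled to 10000 per cell, plus 1, on a natural log scale. Totals of the 6 cells lay between 3119 and 6037 UMIs, median 4540. The 2012 other immune cells of set 1 had a median of 3914 UMIs and the remaining 7352 cells a median of 15030. In set 1 no value was below 0 and 89.5% of the 6 cells' values were exactly 0. In the 97 cells of sets 2 to 6, 35.9% of the values were exactly 0 and 28.6% were below 0, so they had been changed by a step that the sources used here do not give. A UMI total could still be fitted to 22 of the 97 cells, and it was not used. Their low values form narrow bands instead of a zero: for Spib, 46 of the 97 cells stood at 1 or more and 48 lay between 0 and 1 with a median of 0.22. A value of 1 or more is therefore used below as a mark of a high cell, and small values are not read as detection. Whether that step drew the sets together was not tested, and their agreement is not read as that of independent samples.

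The 5 genes that chose the cells are described first, without a test. The promoters of Siglech, Ccr9 and Klk1 are shown because TCF4 and other E proteins bind E-boxes (CANNTG), and each of the 3 holds the E-box form CAGGTG, read on either strand, here in capitals. Of the other rule genes, Cox6a2 had no promoter in the reference and Tcf4 was left out of the search. The 3 are therefore no measure of how often rule genes hold the motif. The windows run from 250 bases before to 50 bases after the gene's start in RefSeq, on GRCm38.p6: chr7:55767934-55768233 (+ strand) for Siglech, chr9:123766961-123767260 (+ strand) for Ccr9 and chr7:44225110-44225409 (+ strand) for Klk1.
Siglech: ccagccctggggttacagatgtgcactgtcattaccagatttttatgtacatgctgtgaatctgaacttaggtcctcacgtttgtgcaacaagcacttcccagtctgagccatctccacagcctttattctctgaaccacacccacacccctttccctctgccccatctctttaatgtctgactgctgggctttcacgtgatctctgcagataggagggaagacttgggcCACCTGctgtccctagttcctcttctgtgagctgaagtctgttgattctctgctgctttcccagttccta
Ccr9: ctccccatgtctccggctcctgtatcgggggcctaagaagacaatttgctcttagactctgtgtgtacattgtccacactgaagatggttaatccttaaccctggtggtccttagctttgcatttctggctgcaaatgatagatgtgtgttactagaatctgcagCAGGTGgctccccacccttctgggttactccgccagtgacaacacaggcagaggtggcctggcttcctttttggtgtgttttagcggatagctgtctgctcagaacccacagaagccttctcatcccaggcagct
Klk1: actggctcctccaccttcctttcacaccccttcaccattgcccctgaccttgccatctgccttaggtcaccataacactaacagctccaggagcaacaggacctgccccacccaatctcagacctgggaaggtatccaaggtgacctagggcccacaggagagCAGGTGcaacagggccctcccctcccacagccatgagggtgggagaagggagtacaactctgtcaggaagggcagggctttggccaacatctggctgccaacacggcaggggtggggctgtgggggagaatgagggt
The match begins 20 bases before the start site in Siglech, 85 before it in Ccr9 and 87 before it in Klk1. Of all 32851 RefSeq promoters of 300 bases, 20.2% hold CAGGTG and 72.3% hold any CANNTG. Of the 20 genes named below as furthest above other immune cells, 13 had a promoter in the table, and CAGGTG was found for 1 of them, Irf8. A match is a run of letters, and binding was not measured.

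Siglech, the lectin receptor that names the lineage, had means of 3.41, 2.80, 3.15, 2.88, 2.90 and 3.00 in sets 1 to 6 (pooled 3.02, SD 0.95 over 103 cells), against 0.004 in other immune cells. It was high, at 1 or more, in 97 of the 103 cells and in 30 other immune and 9 remaining cells. Ccr9, the receptor for the chemokine CCL25, had means from 1.84 in set 2 to 3.06 in set 1 and was high in 93 cells, 78 other immune and 51 remaining cells. Cox6a2, a muscle-type subunit of cytochrome c oxidase, was high in 71 cells, 12 other immune and 5 remaining cells. Klk1, a kallikrein protease, was the most uneven of the 5: 49 cells were high, and the set means ran from 0.50 to 1.15. Tcf4 was high in 100 cells, but also in 2239 other immune and 19363 remaining cells. Since the rule used these 5 genes, their levels say nothing further about the name.

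All 5 genes were high in 30 of the 103 cells, 4 in 46, 3 in 22 and 2 in 5. The median mean over the 5 genes was 2.19, and the 3 lowest cells taken stood at 1.01, 1.04 and 1.07. The 3 highest cells just left out by this limit stood at 0.97, 0.94 and 0.94. Another 14 cells reached 1 but were left out by the other limits, 13 for their T cell genes (means 0.53 to 2.65) and 1 for its C1q genes (0.84).

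In the 6 cells of set 1, Siglech gave 6, 21, 15, 17, 17 and 11 UMIs, and Ccr9 gave 10, 10, 6, 13, 21 and 4. Klk1 gave 1 and 3 UMIs in 2 of the cells and none in the other 4. Siglech, which is part of the mean that chose these cells, was found in 0.199% of the other immune cells and 0.177% of the remaining cells.

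**Figure D2:**
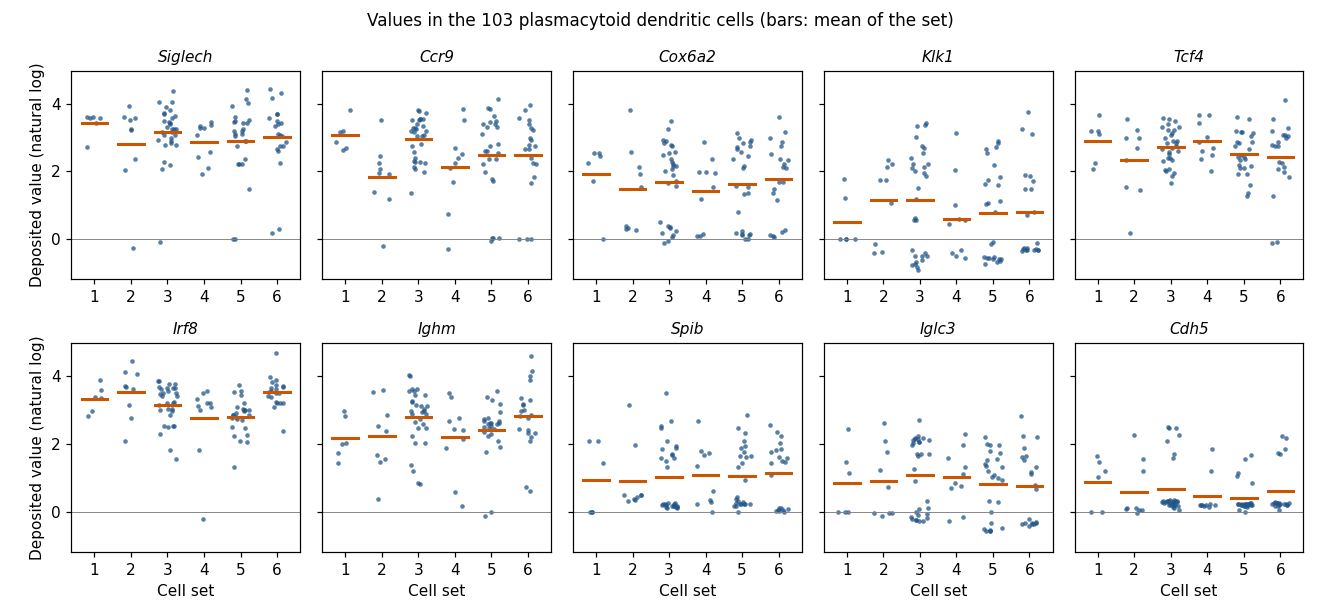
Deposited value (natural log scale) of 10 genes in each of the 103 plasmacytoid dendritic cells, by cell set; each point is a cell and each bar the mean of the set. Siglech and Irf8 are high in nearly every cell, Klk1, Spib, Iglc3 and Cdh5 split into high cells and a narrow low band, which in set 1 lies at exactly 0.

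Across the 2000 genes, 75 (3.75%) were higher by 0.5 or more on the natural log scale than in other immune cells and 64 (3.2%) were lower by as much. The median difference of all genes was -0.0074. Counts for the gene lists below are to be read beside these 2 shares, and a short list with no gene called is near them. Per UMI in set 1, with 10 CPM (UMIs per 1000000 UMIs of the cells) added, 170 genes (8.5%) were 2-fold or more higher and 598 (29.9%) 2-fold or more lower. Of the 2000 genes, 1497 had no UMI in the 6 cells. Such a gene counts as 2-fold lower once other immune cells reach 10 CPM, though a count of 0 allows up to 106 CPM. The number of lower genes is therefore bound to the low depth and is not read as a result. These shares come from the contrast that chose the cells and are a description. The 75 include the 5 rule genes, whose mean the rule required to be at least 1. All 75 were also higher in each of the 6 sets and per UMI in set 1. For 69 of them the 95% Poisson interval of the set 1 ratio lay above 1. That interval covers counting error only and rests on 6 cells.

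Transcription factors of the lineage stood out beside Tcf4. Irf8, needed for dendritic cell development, had set means of 3.33, 3.52, 3.15, 2.76, 2.80 and 3.52, against 0.75 in other immune cells. It was high in 102 of the cells, but also in 7541 other immune and 7783 remaining cells. In set 1 it gave 15, 17, 8, 27, 13 and 5 UMIs, or 3010 CPM, 11.4 times the level of other immune cells (CI 9.05 to 14.1). Bcl11a, a zinc finger factor needed for lymphoid and plasmacytoid development, had set means from 1.13 to 1.57 against 0.02, with 71 high cells. Spib, an Ets family factor, had set means from 0.89 to 1.13 against 0.003, with 49 high cells. Bcl11a was also high in 144 other immune and 80 remaining cells, and Spib in 19 and 31. Spi1, which encodes PU.1, had no UMI in the 6 cells, where a count of 0 allows up to 106 CPM, against 46.3 CPM in other immune cells, so a difference was not detectable at this depth. Zeb2 (0.75 against 0.40) and the corepressor gene Cbfa2t3 (0.51 against 0.07) differed by less than 0.5. Of the 9 listed factors measured, 3 were higher by 0.5 and none lower, with a median difference of 0.35.

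Surface genes of the lineage followed. Of 14 measured, 6 were higher by 0.5 or more and 1 lower, with a median difference of 0.42. Lair1, an inhibitory collagen receptor, had a mean of 1.80 against 0.18 and 83 high cells. Ly6d stood at 1.81 against 0.31, though it was also high in 21127 of the remaining cells, and Ly6c2 at 1.69 against 0.40. Smim5 (0.69) and Gm21762 (0.64) were near 0 in other immune cells, with 39 and 38 high cells. In set 1 Ly6d was uneven, with 5, 5, 18, 0, 3 and 2 UMIs. Cd4 (0.25 against 0.13) and Cd8a (0.48 against 1.21), both reported on subsets of mouse plasmacytoid dendritic cells, were high in 15 and 28 cells. Cd8b1 was high in 36 cells. Trbc2 was high in none, but the rule caps the mean of Trbc2 and Cd3g, so this was in large part set by it.

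Of the 20 genes with the largest differences, Psap, Pld4, Mpeg1, Ctsb, Ctsh and Ctsl encode proteins of lysosomes or phagosomes, a grouping made after the values were seen. Psap, the precursor of the saposins that help degrade sphingolipids, had set means of 4.10, 4.17, 3.74, 3.78, 3.86 and 4.11, against 1.57 in other immune cells. In set 1 it gave 30, 34, 49, 38, 13 and 17 UMIs, 4.11 times the level of other immune cells (CI 3.53 to 4.76). Pld4, an endolysosomal exonuclease that limits Toll-like receptor signalling, stood at 2.28 against 0.24 with 93 high cells, 15.9 times as high in set 1 (CI 10.7 to 22.8). The cathepsin genes Ctsb (2.59 against 1.18), Ctsl (2.14 against 0.65) and Ctsh (1.76 against 0.27) were all among the 20. So were Mpeg1, a pore-forming protein of phagosomes (2.59 against 0.36), and the ribonuclease gene Rnase6 (1.42 against 0.04). Cybb, the catalytic subunit of the phagocyte NADPH oxidase, stood at 2.17 against 0.40. Tyrobp, the adaptor through which Siglec-H signals, stood at 2.87 against 0.54, and it also serves to define the other immune cells. Its partner Fcer1g stood at 0.83 against 0.51. Klf2, Pltp, Atp1b1, Tspan13, Cd74 and Ighm were also among the 20. Of these, Pltp, a phospholipid transfer protein, stood at 1.56 against 0.05 and Atp1b1, a sodium pump subunit, at 1.48 against 0.04.

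**Figure D3:**
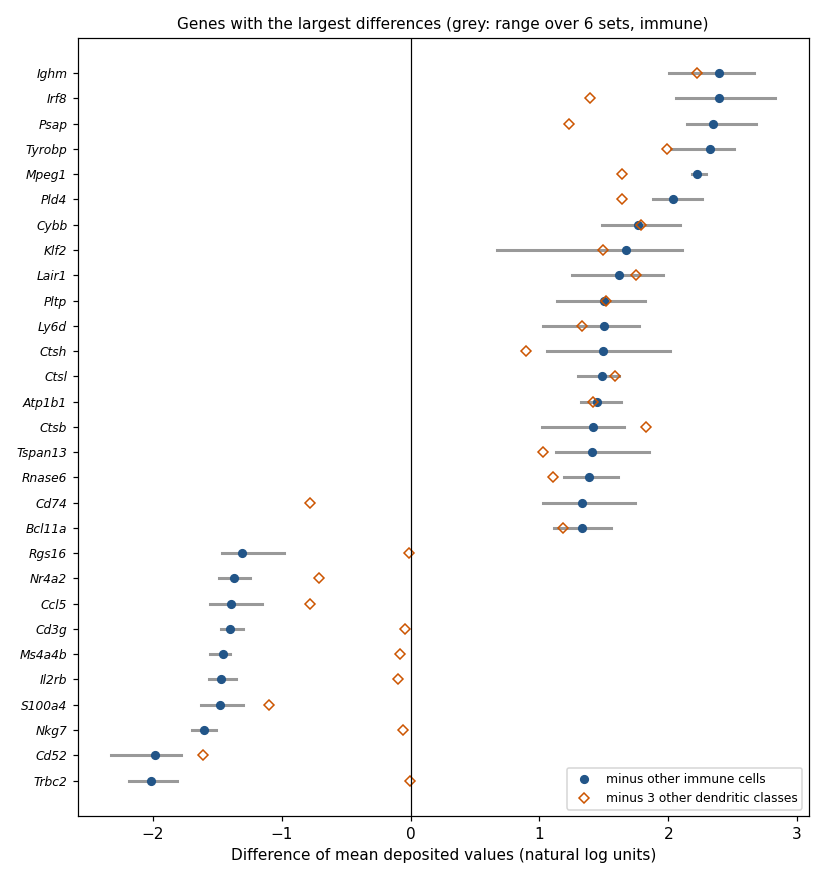
Difference of mean deposited values (natural log units) for 19 of the 20 genes with the largest positive and the 10 with the largest negative difference in plasmacytoid dendritic cells, outside the 5 rule genes. Filled circles are against other immune cells, with the range over the 6 sets in grey, and open diamonds against 3 other dendritic classes; Cd74 is the gene on opposite sides of 0 in these comparisons.

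Of 19 listed type I and III interferon genes only Ifnb1 is among the 2000, and it was at exactly 0 in all 103 cells. Of 18 interferon response genes measured, 1 was higher by 0.5 and none lower (all 2000 genes: 3.75% and 3.2%), with a median difference of -0.04. The one was Iigp1, a GTPase induced by interferon (0.925 against 0.265), with set means from 0.43 to 1.18 and 48 high cells. Isg15, a ubiquitin-like protein of the same response, had no UMI in the 6 cells and was high in 10 of 103, with a mean of 0.07 against 0.48. In set 1 it stood at 136 CPM in other immune cells, above the 106 CPM that a count of 0 allows here. Ifit1 and Ifit3 were high in none of the cells. The chemokine genes Cxcl10 (-0.06 against 0.41) and Cxcl9 (-0.02 against 0.28) had no UMI in the 6 cells either. The summed level of the list ran from 2.97 to 4.36 over the sets, against 3.98 to 4.87 in other immune cells. Irf5, a factor downstream of Toll-like receptors, stood at 0.53 against 0.31.

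Several genes of antigen presentation by class II molecules were higher than in the other immune cells as defined here and lower than in other dendritic cells. Of the 489 other dendritic cells, 187 are among these other immune cells and the rest are missing from that mean. What their absence adds to the differences was not tested. Of 7 measured, 5 were higher by 0.5 or more than in other immune cells and none lower, with a median difference of 0.68. Against other dendritic cells, none of the 7 was higher by 0.5 and 4 were lower. Cd74, the invariant chain, had set means of 2.73, 1.95, 2.64, 2.29, 2.06 and 1.94 against 0.93. H2-Aa stood at 1.48 against 0.66, H2-Ab1 at 1.46 against 0.78 and H2-Eb1 at 1.09 against 0.57. Set 3 weighed on these values: without it the difference of H2-Ab1 went from 0.68 to 0.48 and that of H2-Eb1 from 0.52 to 0.30, both below 0.5. By set the difference of H2-Ab1 ran from 0.10 in set 6 and 0.11 in set 2 to 1.24 in set 1, and that of H2-Eb1 from 0.16 in sets 5 and 6 to 1.04 in set 3. Per UMI in set 1 the ratio was 2.85 for Cd74 (CI 2.14 to 3.74) and 1.83 for H2-Ab1 (CI 1.22 to 2.63). For H2-Aa, at 1.38 (CI 0.786 to 2.24), and H2-Eb1, at 1.32 (CI 0.682 to 2.31), the interval included 1. All 4 of these genes were high in 40 of the 103 cells, 3 in 17, 2 in 17, 1 in 19 and none in 10, so the cells were far from uniform. Across the 103 cells, after centring on the set mean, the 6 pairs of these genes had Pearson correlations from 0.51 to 0.58. The points share depth and library, and the value is a description.

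None of the 10 measured genes for costimulation and checkpoint ligands was higher by 0.5, beside 3.75% of all 2000 genes. Cd86 had a mean of -0.10 and 2 high cells, Cd83 a mean of 0.18 and 2 high cells, and Cd274, which encodes PD-L1, a mean of 0.14 and 9 high cells. Ido1, an enzyme of tryptophan breakdown linked to tolerance, was high in 1 cell. Kmo, which acts later in the same pathway, was chosen after its values were seen and stood at 1.30 against 0.03, with 57 high cells and 2, 3, 4, 4, 4 and 0 UMIs in set 1.

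Of 14 migration receptors measured, 2 were higher by 0.5 or more, among them the rule gene Ccr9, and 1, Cxcr6, was lower (0.02 against 1.24). The shares over all 2000 genes were 3.75% and 3.2%. Ccr7, which leads mature dendritic cells to lymph nodes, was high in 1 cell. Itgb7, the integrin chain of gut homing, stood at 0.62 against 0.24. Cx3cr1 was high in 1 cell.

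Ccl4 was the only one of 16 measured cytokine and chemokine genes to be higher by 0.5 or more, and 4 were lower. This T cell and monocyte attractant had set means of 2.47, 2.33, 2.55, 2.61, 2.62 and 1.87, against 1.42 in other immune cells, many of which express it. It gave 11, 21, 0, 50, 15 and 0 UMIs in set 1, so 2 of the 6 cells had none. Over 103 cells its SD was 1.47, the widest of the 2000 genes, with quartiles of 1.65 and 3.54. Ccl3, its neighbour in function, stood at 0.40 against 0.82 and was high in 17 cells. Ccl5 (0.03 against 1.42), Gzmb (-0.02 against 0.96) and Prf1 (0.02 against 0.93), products of killer lymphocytes, had no UMI in the 6 cells. Il6 and Il12b were high in no cell, and Tnf in 6.

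Several genes of the lymphoid programme were higher. Of 12 measured, 4 were higher by 0.5 or more and 1, Cd2, lower. Ighm, the constant region of the immunoglobulin M heavy chain, had set means of 2.16, 2.22, 2.78, 2.19, 2.41 and 2.82, against 0.16. It was high in 94 of the 103 cells and gave 8, 4, 2, 9, 3 and 1 UMIs in set 1. Iglc3, a lambda light chain constant region, stood at 0.91 against 0.0004 with 54 high cells, and Dntt, the polymerase that adds bases at rearranging joints, at 0.74 against 0.004 with 42. Ighm was also high in 1050 other immune and 259 remaining cells, Iglc3 in 11 and 44 and Dntt in 30 and 7. The limit for other immune cells names no B cell gene, so cells with immunoglobulin genes can fall among the remaining cells. Il7r, the interleukin receptor of early lymphocytes, stood at 1.04 against 0.19 with 57 high cells. In set 1 Dntt was confined to 2 of the 6 cells, with 4 and 3 UMIs, and Iglc3 to 3, with 2, 6 and 1. Of Ighm, Iglc3, Igkc and Dntt, 4 of 103 cells had none high, 28 had 1, 35 had 2, 28 had 3 and 8 had all 4. Igkc, the kappa light chain, differed in direction by scale: its mean was 0.49 against 0.04, while its set 1 ratio per UMI was 0.727 (CI 0.236 to 1.70). Reads of constant regions can be shared between close copies such as Iglc2 and Iglc3, so the split between these 2 is uncertain.

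Markers of B cells were mixed. Ms4a1 and Ebf1 had no UMI in the 6 cells and were high in none of the 103. Of 6 measured B cell genes, none was higher by 0.5, and the summed level ran from -0.34 to 1.35 over the sets, against 0.032 to 0.065 in other immune cells. In set 1 it came to 106 CPM, from 3 UMIs, against 8.31 CPM. Cd79b was high in 8 cells and Mzb1, shared with plasma cells, in 31, while Jchain was high in 1. None of 8 macrophage genes, 7 neutrophil genes, 9 NK genes or 9 T cell genes was higher by 0.5. Only 3.75% of all 2000 genes were, so 0 in lists this short, the B cell genes included, says little about them. The summed level of the macrophage genes ran from 1.28 to 2.10 over the sets, against 2.78 to 3.60 in other immune cells, that of the T cell genes from 1.19 to 2.19 against 8.13 to 9.44, and that of the neutrophil genes from -0.28 to 0.41 against 0.33 to 0.68. The T cell list holds Cd3g and Trbc2 and the macrophage list the C1q genes, which the rule capped, so these gaps are in part set by it. Of 8 monocyte genes, Ly6c2 was higher by 0.5 or more and S100a4 lower. Of 9 type 2 conventional dendritic cell genes, Clec10a (1.08 against 0.10) and Cd7 (0.74 against 0.09) were higher by as much and Ltb lower, and the summed level ran from 2.88 to 3.94 against 1.78 to 2.15. Of the secreted hepatoma proteins, Afp had a mean of 1.93 against 1.57, and its difference was 0.60, 0.57 and 0.64 in sets 2, 5 and 6. In set 1 Afp gave 4, 4, 2, 2, 3 and 1 UMIs, a ratio of 0.778 (CI 0.444 to 1.26), and Alb a ratio of 0.932 (CI 0.532 to 1.51). The 9 hepatoma genes summed to 1488 CPM in the 6 cells, 1780 in other immune cells and 10878 in the remaining cells. Their mean was 0.5 or more in 65 of the 103 cells (63.1%), 48.9% of other immune cells and 94.9% of the remaining cells, and the part of this RNA in the other results was not tested. No cell of the 6 was called a doublet, among 91 of the 9370 cells of set 1 called.

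The 10 genes furthest below other immune cells were Trbc2, Cd52, Nkg7, S100a4, Il2rb, Ms4a4b, Cd3g, Ccl5, Nr4a2 and Rgs16. Trbc2 and Cd3g are limited by the rule, and T cell genes define part of the reference. Cd52, a small surface glycoprotein of most leukocytes, stood at 0.06 against 2.05 and S100a4, a calcium-binding protein, at 0.06 against 1.54. Both had no UMI in the 6 cells and were also lower than in other dendritic cells (1.68 and 1.16).

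**Figure D4:**
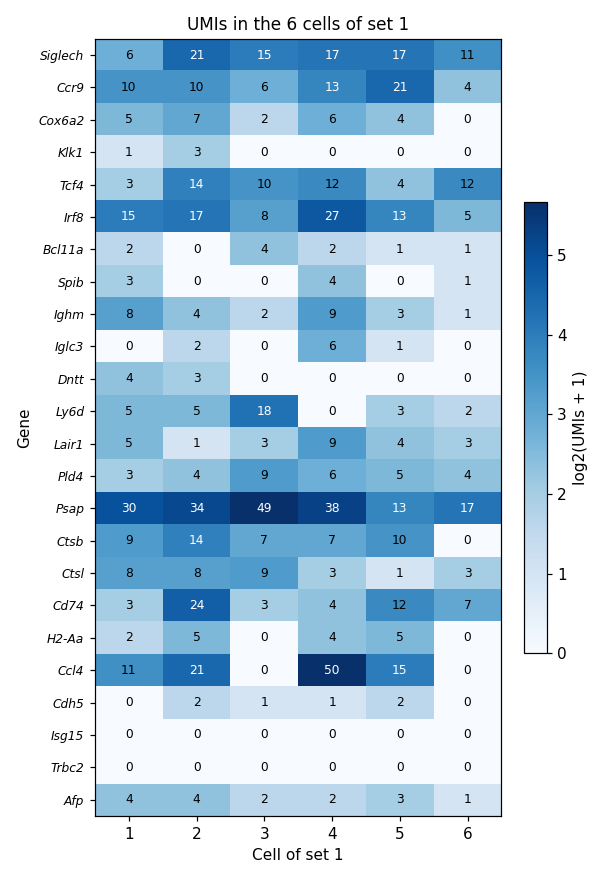
UMIs of 24 genes (rows) in each of the 6 plasmacytoid dendritic cells of set 1 (columns), with the count printed in each field and the colour on a log2 scale of the count plus 1. Siglech, Ccr9, Tcf4, Irf8, Ighm, Pld4 and Psap have UMIs in all 6 cells, Ccl4 ranges from 0 to 50, and Isg15 and Trbc2 have none.

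The cells were also set against 3 other dendritic classes with the same limits on T cell and C1q genes. They were 135 cells with a mean of Xcr1 and Clec9a of at least 1 (type 1), 253 with such a mean of Ccr7, Fscn1 and Ccl22 (mature), and 108 with Cd209a of at least 1, together 489 cells as 7 fell in 2 classes. Against them 75 genes (3.75%) were higher by 0.5 or more and 65 (3.25%) lower, with a median difference of -0.004 over all genes. Of the 75, 60 were also higher against other immune cells by as much, 80% of either list. The 60 include the 5 rule genes. Both comparisons share the 103 cells, and 187 of the 489 dendritic cells are also among the other immune cells, so this overlap is fixed in part by how the groups were made. Only H2-Aa, H2-Ab1, H2-Eb1 and Cd74 of the 2000 genes were higher than in other immune cells and lower than in other dendritic cells, each by at least 0.5, and without set 3 H2-Ab1 and H2-Eb1 no longer passed against other immune cells (0.48 and 0.30). H2-Aa was 1.48 here, 3.31 in type 1, 2.53 in mature and 3.15 in Cd209a-positive cells. Cst3, the cystatin C gene typical of conventional dendritic cells, was 1.50 here and 4.97, 4.09 and 3.21 in those classes, the largest negative difference of the table at -2.63. Cd83, an activation marker, was 0.18 here and 1.38, 1.90 and 1.81 there. Tmsb4x, an actin-binding peptide, was 4.07 here and 5.32 over the 3 classes.

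Ighm was the gene outside the rule with the largest positive difference from the other dendritic classes, at 2.55 against 0.33. Tyrobp, Ccl4, Ctsb, Cybb, Lair1, Mpeg1, Pld4 and Ly6c2 were among those that came next. Ccl4 stood at 2.41 against 0.56, and was 0.67 in type 1, 0.18 in mature and 1.32 in Cd209a-positive cells. Irf8 was highest here at 3.14, then 2.58 in type 1, 1.80 in mature and 0.60 in Cd209a-positive cells. Flt3, the receptor for the dendritic growth factor FLT3 ligand, was shared, at 0.60 here and 0.80, 0.36 and 0.44 there. Psap stood at 3.91 here and at 4.19 in type 1 cells. Clec9a, a type 1 receptor for dead cells, was high in 26 of the 103 cells, while Xcr1 was high in none. Clec10a, a lectin of type 2 cells, was high in 58 cells (1.08) against 1.61 in Cd209a-positive cells, while Cd209a itself was high in 2.

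**Figure D5:**
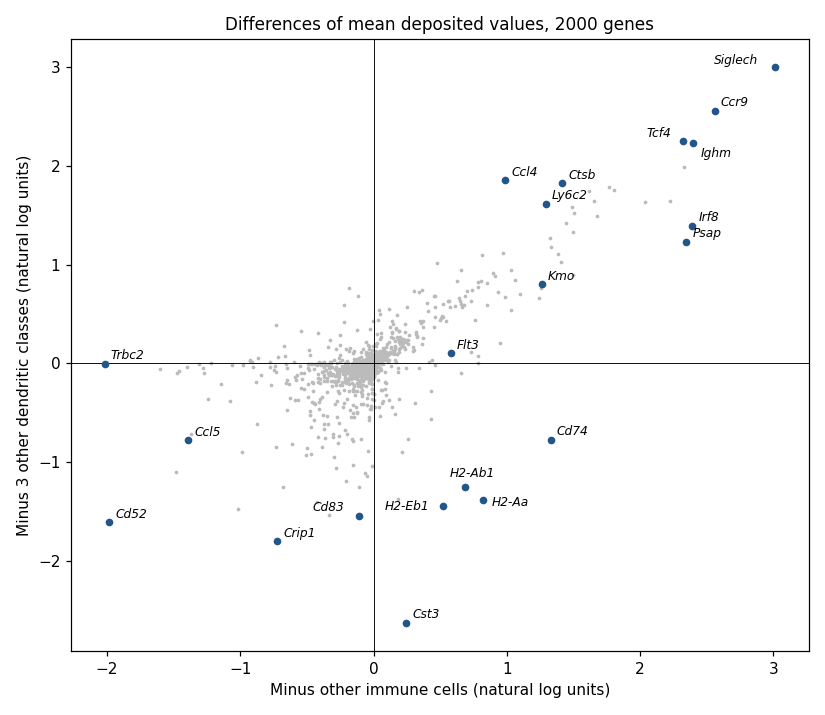
Difference of mean deposited values (natural log units) of plasmacytoid dendritic cells from other immune cells (horizontal) and from 3 other dendritic classes (vertical), 1 point for each of 2000 genes. Most marked genes lie in the upper right, the class II genes H2-Aa, H2-Ab1, H2-Eb1 and Cd74 at the lower right, and Cst3 at the bottom.

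Cdh5, the cadherin of endothelial cell junctions, was higher in these cells than in other immune cells. Its set means were 0.89, 0.59, 0.68, 0.46, 0.39 and 0.62 against 0.002, and 25 of the 103 cells were high. The pooled difference of 0.57 was 0.42, below 0.5, with values under 1 set to 0. In set 1 it gave 0, 2, 1, 1, 2 and 0 UMIs, 213 CPM against 0.594 CPM in other immune cells. A UMI was seen in 4 of the 6 cells, 0.249% of other immune cells and 0.939% of the remaining cells. Of the 5 listed endothelial genes only Kdr was also measured, with 12 high cells and 2 UMIs in the 6 cells. Over the table Cdh5 was high in 27 other immune and 36 remaining cells.

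Cell cycle genes were lower than in other immune cells. None of 12 was higher by 0.5 and 3 were lower, beside 3.75% and 3.2% of all 2000 genes. Mki67 had a mean of 0.08 and Top2a of 0.09. Against the 3 other dendritic classes, 0 of the 12 were higher and 0 lower by 0.5, with a median difference of -0.06. Ccnd1, a cyclin of growth entry, was higher at 1.37 against 0.28, with 71 high cells. The immediate early gene Fosb stood at 2.61 against 1.28 and the chaperone gene Dnajb1 at 1.38 against 0.72. In sets 2 to 6 the lowest value of Dnajb1 shifted, from 0.00019 in set 6 to 0.71 in set 4. What this shift adds to its difference was not tested, and in set 1 the difference was 0.66. Fosb was above its level in other immune cells in each set, by 1.02 to 1.47. Transcripts of 8 mitochondrial genes summed to 14911 CPM in the 6 cells and 10457 in other immune cells.

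The heat-shock genes Hspa1a and Hspa1b were lowest in set 6. Hspa1b had means of 1.64, 1.46, 1.72, 1.89, 1.62 and 0.48 in sets 1 to 6, while other immune cells stayed between 1.41 and 1.53. Hspa1a followed with 0.47, 0.52, 0.85, 1.15, 0.82 and -0.29. Hspa1b was high in 4 of the 21 cells of set 6, against 5 of 6, 9 of 9, 16 of 31, 7 of 10 and 13 of 26 in sets 1 to 5. The low values themselves shifted by set: the lowest was 1.14 in set 2 (median 1.21), 0.62 in set 3 and -0.56 in set 6. In set 2 a value of 1 or more therefore does not mark a high cell for this gene. Set means and counts of high cells cannot be told apart from this shift. The cells of set 6 overlapped those of other sets, with values from -0.56 to 2.50 against 0.0039 to 5.01 in set 5. The set's genotype and treatment are unknown, so no group is read from this.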

How the data were processed

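Single-cell RNA libraries of 4 tumour groups (8 entries, a cDNA and an oligo library each) were deposited as 1 table of 2000 genes by 53528 cells. Per the submitters' processing notes, reads were aligned with STAR 2.7.2b, and both GRCh38 and mm10 are named; the normalization is not given in the sources used here. As deposited, the values fit a natural log scale in set 1, where natural log(1 + UMIs per 10000 UMIs) gave a whole total for 100% of cells (tolerance 1e-06, at least 2 agreeing values above 0.02). Recovered UMIs were whole within 0.01 for 100% of set 1 values. No value of sets 2 to 6 was treated as a count. The names of all 53528 columns match no sample's labels.

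Means, differences of means and shares were computed with Python 3.11.15, numpy 2.4.6 and scipy 1.17.1, figures with matplotlib 3.10.9. No cell was filtered out. Differences of 0.5 or more are counted, which is a rule of size and not a test. Intervals are exact 95% binomial or Poisson ones and cover counting error only, and a count of 0 was given a limit of 3 UMIs. Scrublet in scanpy 1.11.5 called 91 cells of set 1 (0.971%) doublets, and none was removed. Scripts were tested on simulated data. Outside the 5 rule genes, the 20 genes with the largest positive and the 10 with the largest negative difference from other immune cells, same sign in 6 sets, were named, with genes of the marker and pathway lists that differed by 0.5 or define a cell type. A planned naming of genes that follow the rule genes within set 1 was not used, since 6 cells are too few. A few genes that these rules name are not reported here. The cells, lists and rules were chosen with earlier results of these data known. Alternatives covered the rule's threshold and genes, the size called, each set left out, thinning, pseudocounts and the choice of other immune cells.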

Additional observations from a re-analysis of the deposited data

How the results depend on the processing

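The share of plasmacytoid dendritic cells, 0.550% of immune cells, was 0.619% with the rule's threshold lowered by 0.25 and 0.523% with it raised by as much, and leaving out each rule gene in turn gave 101 to 114 cells. It was 0.198% (37 cells) without the cells whose B cell, hepatoma or neutrophil markers averaged 0.5 or more, and 0.192% when all cells were the denominator. Counting differences of 0.25 or more gave 113 higher and 187 lower genes, and of 1 or more 33 and 18, against 75 and 64 at 0.5. With 1 CPM added in place of 10, 1077 genes were 2-fold lower in set 1, against 598. Of 473 values for 43 named genes under these alternatives, 450 moved by less than 1 SD over the 6 sets, 23 moved by more, and 0 changed sign. Most of the alternatives reuse nearly the same cells and sets, so small moves are in part fixed in advance and 450 is no measure of stability. With set 1 alone, 21 of the 43 genes moved by more than 1 SD. Calls at 0.5 were lost without set 3 for H2-Ab1 (0.48) and H2-Eb1 (0.30), with values below 1 set to 0 for Cdh5 (0.42) and H2-Eb1 (0.45), and with set 1 alone for Klk1 (0.499). The alternatives with set 1 alone, with values below 1 set to 0 and without immune cells high in Afp and Alb were chosen after seeing the data. Molecule counts rest on 6 cells. No paired analysis was possible because no set could be tied to a group or replicate.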
